A study of Mus musculus with 196 samples.

Results

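The transcription regulator ZGLP1 was switched on by doxycycline (Dox) in mouse primordial germ cell-like cells (PGCLCs) under a treatment that the labels name BMS. RNA was profiled on days 4, 5, 7 and 9 of culture. The day labels count days of culture and do not give the time since BMS or Dox was added. PGCLCs are cells of the early germ cell state, derived in culture from embryonic stem cells through an epiblast-like stage. The 16 libraries described here are all libraries of the Zglp1 overexpression line, clone A2, labelled BMS or BMSDox on those days, out of 65 libraries of that line and 196 samples in the series. They form 8 groups of 2: BMS without Dox and BMS with Dox (BMSDox) at each of the 4 days. The question was which genes the induced factor moved, in what order, and for how long.

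All 8 groups share 1 genotype on a 1:1 background of 129S1 and C57BL/6. The cells carry the reporters Prdm1-mVenus (Tg/0) and Dppa3-ECFP (Tg/0), a piggyBac transgene in which a tetO/mCMV promoter drives the Zglp1 coding sequence, an IRES and mCherry (with a puromycin resistance gene, Pac, behind an EF1a promoter), and a second piggyBac transgene with rtTA, an IRES and Neo behind EF1a. Cells positive for the Prdm1 reporter were sorted 4 days after induction and plated on m220 feeder cells, which present stem cell factor on their membrane. The cultured cells were then sorted by the Dppa3 reporter, so genes that move with Dppa3 were seen only in cells that kept it. What limits the comparison as a model is that A2 is 1 clone, that EF1a and tetO/mCMV promoters rather than those of the germ line drive the transgenes, that none of these samples is of transgene-free cells given Dox, and that the labels used here do not say when Dox was added or what BMS stands for. They also do not say whether the replicates were separate cultures. Every p-value therefore weighs a change only against scatter among replicates, and this scatter may be technical. In the main limma fit it was pooled over 191 libraries of 98 groups, other lines and treatments included, not over these 16 alone.

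ZGLP1 is a zinc finger protein of the GATA-like kind and is known for a role in the entry of female germ cells into oogenesis. A germ cell that enters meiosis first turns on regulators such as STRA8 and MEIOSIN. It then loads meiosis-specific cohesin on its chromosomes, builds the synaptonemal complex between homologs, cuts its DNA and repairs the cuts as crossovers, while telomeres attach to the nuclear envelope. Oocyte transcription factors such as FIGLA, NOBOX and LHX8 act later, around the formation of follicles.

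Promoter sequences are shown for 5 genes of these programmes, because genes of meiosis are the main subject of the results below and the letters marked in them are known recognition sequences of the regulators named with them. The 250 bases before the RefSeq start (GRCm38.p6) were searched on both strands for CACGTG, an E-box that reads the same on both strands and that MAX and MGA dimers bind, and for GCGGGAA, a core site of E2F factors. The 5 were chosen for holding a match: Stag3 at chr5:138280259-138280508 (plus strand), Meioc at chr11:102665335-102665584 (plus), Smc1b at chr15:85131958-85132207 (minus), Sycp1 at chr3:102936101-102936350 (minus) and Taf7l at chrX:134476491-134476740 (minus). Each is written 5′ to 3′ along its gene, and capitals mark the match. In Smc1b the GCGGGAA match lies on the opposite strand and so appears as its complement.
Stag3: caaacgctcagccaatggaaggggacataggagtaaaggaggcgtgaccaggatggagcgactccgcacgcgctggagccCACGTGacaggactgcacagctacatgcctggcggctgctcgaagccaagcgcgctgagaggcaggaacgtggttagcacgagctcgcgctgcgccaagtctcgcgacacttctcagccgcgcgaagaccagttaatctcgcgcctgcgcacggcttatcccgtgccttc
Meioc: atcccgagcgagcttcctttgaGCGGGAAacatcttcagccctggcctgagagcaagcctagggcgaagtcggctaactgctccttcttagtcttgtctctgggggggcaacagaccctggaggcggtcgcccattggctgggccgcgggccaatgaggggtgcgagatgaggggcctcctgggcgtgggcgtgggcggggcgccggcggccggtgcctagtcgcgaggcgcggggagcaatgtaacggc
Smc1b: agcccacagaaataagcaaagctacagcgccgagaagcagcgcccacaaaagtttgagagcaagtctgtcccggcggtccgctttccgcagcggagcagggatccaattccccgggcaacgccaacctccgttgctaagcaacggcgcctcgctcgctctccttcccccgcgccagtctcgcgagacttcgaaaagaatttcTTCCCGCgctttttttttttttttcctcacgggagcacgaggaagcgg
Sycp1: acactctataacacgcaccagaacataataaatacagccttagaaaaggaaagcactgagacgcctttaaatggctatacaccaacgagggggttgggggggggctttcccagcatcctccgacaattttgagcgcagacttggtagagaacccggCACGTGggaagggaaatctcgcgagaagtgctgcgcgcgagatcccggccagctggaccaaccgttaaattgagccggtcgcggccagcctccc
Taf7l: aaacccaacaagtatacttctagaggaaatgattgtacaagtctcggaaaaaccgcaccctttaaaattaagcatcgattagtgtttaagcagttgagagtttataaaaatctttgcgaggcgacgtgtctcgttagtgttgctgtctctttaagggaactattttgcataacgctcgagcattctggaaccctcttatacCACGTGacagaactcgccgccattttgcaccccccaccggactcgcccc

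CACGTG was present in 21.1% and GCGGGAA in 24.6% of the 57 promoters found for the 71 genes of 6 meiotic lists. The shares among the 8150 promoters found for all 10225 genes tested were 10.7% and 9.09%, and 6.86% and 4.38% among all 27025 genes with a listed promoter. Of the genes higher with Dox on all 4 days, 106 of 123 had a promoter in the table, and 10.4% of these held CACGTG and 17 of them GCGGGAA. The GATA-type letters AGATAA were in 8.49% of those 106 promoters, in 6.45% of the tested genes' promoters and in 1.75% of the 57 meiotic ones. The letters TGATAA, searched in the same way, were in 0.943%, 4.36% and 3.51% of the same 3 sets. Sets of genes that were lower with Dox held these letters too. In the 57 promoters found for the 74 genes lower on all 4 days, CACGTG was in 19.3%, GCGGGAA in 5.26%, AGATAA in 15.8% and TGATAA in 14.0%. Of the 21 promoters of the glycolysis list, 4 held CACGTG, 3 GCGGGAA, 1 AGATAA and 4 TGATAA. The letters CNCCTCAG (N for any base), known as a motif of STRA8, were searched too. They were in 10.5% of the meiotic promoters and 8.97% of the tested genes' promoters. Among genes higher on all 4 days the share was 15.1%, and among genes lower on all 4 days 12.3%. These are counts of letters in a fixed window and do not show a bound site.

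Each library held 1056456 to 3308563 reads on genes (median 2588407), and the values are RPM, the reads of a gene scaled to a total of 1000000, in which 1 read was worth 0.302 to 0.947 RPM. BMSDox replicate 2 at day 9 was the shallowest library and BMS replicate 2 at day 5, with 1293204 reads, the next. The 7 germ cell markers summed to 1235 to 2646 RPM in every library, and Dppa3 itself stood at 350.4 to 1647 RPM. Of the 9 feeder and stroma markers, which summed to 191 to 423 RPM, Sparc made up 138 to 299.9 RPM, while Lum, Thy1, Postn and Pdgfrb were at 0 in at least 1 library. The 6 markers of gonadal somatic cells summed to 0.374 to 12.7 RPM, with no read of Nr5a1 in any library. The 3 neural markers, mostly Pax6, summed to means of 42.6, 54.5, 43.4 and 32.4 RPM in BMS on the 4 days and 11.9, 13.8, 11.3 and 7.37 RPM in BMSDox. Of the 4 mesoderm markers, which summed to 1.21 to 123 RPM in the other 15 libraries, Hand1 set BMSDox replicate 1 of day 9 apart. It held 264.5 of a sum of 266.8 RPM there, against a sum of 40.7 RPM in replicate 2. The part of these other cell types in the results was not tested.

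The transgene responded on every day. The row named mCherry, after the reporter behind the induced coding sequence, held 134 and 114 RPM at day 4, 183 and 104 at day 5, 277 and 168 at day 7 and 43.5 and 96 at day 9 with BMS. The BMSDox libraries held 5471 and 6186 RPM at day 4, 9196 and 5763 at day 5, 17415 and 8293 at day 7 and 11751 and 8929 at day 9. All BMSDox libraries were far above all BMS libraries, and the row was not at 0 without Dox, where it lay between 43.5 and 277 RPM. The other transgene rows were lower with Dox. The rtTA row held 7210 RPM or more in every BMS library and 5470 RPM or less in every BMSDox library, and the puroR row 3486 RPM or more against 2004 RPM or less. Which part of each construct these rows cover is not given in the sources used here, and they entered no test.

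The transgene carries only the Zglp1 coding sequence, and these libraries read the 3′ ends of messages. The Zglp1 row (chr9:21062393-21067093, minus strand, mm10) may hold reads of the endogenous gene, of the transgene or of both, and their source was not tested. It held 2.04 and 4.84 RPM at day 4, 4.84 and 3.87 at day 5, 1.98 and 3.74 at day 7 and 1.88 and 8.13 at day 9 with BMS. In the presence of Dox the values were 7.08 and 15.7 RPM at day 4, 17.9 and 11 at day 5, 4.28 and 10.1 at day 7 and 13.9 and 18 at day 9. The BMSDox libraries were the higher ones on every day. The change, which here and below is the difference in mean log2(RPM + 1) between BMSDox and BMS ± its standard error, was 1.46 ± 0.50 (adjusted p = 0.037) at day 4, 1.50 ± 0.50 (adjusted p = 0.026) at day 5, 1.03 ± 0.50 (adjusted p = 0.12) at day 7 and 1.72 ± 0.50 (adjusted p = 0.0052) at day 9 by limma. The calls were fragile: day 4 was lost with edgeR (1.77, adjusted p = 0.13), without BMSDox replicate 2 (0.94, adjusted p = 0.41), without BMS replicate 1 (0.99, adjusted p = 0.28) and without BMS replicate 2 (1.94, adjusted p = 0.093), day 5 with edgeR (1.62, adjusted p = 0.16), without BMSDox replicate 1 (1.17, adjusted p = 0.23), without BMS replicate 1 (1.63, adjusted p = 0.056) and without BMS replicate 2 (1.37, adjusted p = 0.19), and day 9 with edgeR (1.39, adjusted p = 0.16), without BMSDox replicate 2 (1.54, adjusted p = 0.067) and without BMS replicate 1 (0.88, adjusted p = 0.32).

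**Figure D1:**
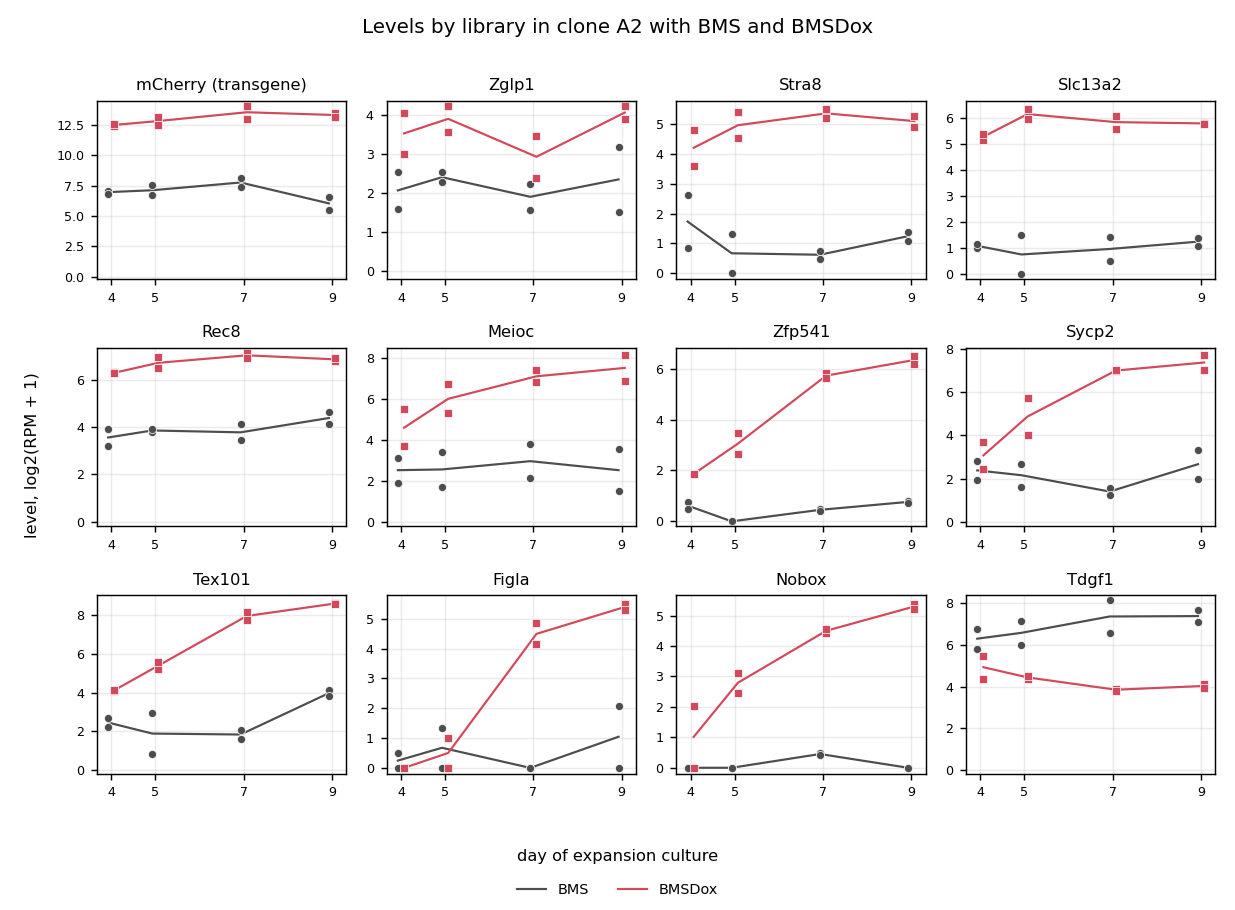
Levels of the mCherry transgene row and of 11 genes as log2(RPM + 1) (vertical) by day of culture (horizontal). Grey circles are BMS libraries, red squares BMSDox libraries and lines join the means of 2. Slc13a2, Rec8 and, at low levels, Zfp541 are apart from day 4 on. The arms of Sycp2 overlap at day 4 and those of Figla through day 5, and Tdgf1 goes the other way.

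A gene was called when the adjusted p of limma was under 0.05 and the change at least 1 in either direction. The number of called genes grew each day. At day 4, 511 genes were higher and 436 lower with Dox (5.00% and 4.26% of the 10225 tested), and at day 5, 849 and 447 (8.30% and 4.37%). At day 7, 1184 were higher and 566 lower (11.6% and 5.54%), and at day 9, 1477 and 659 (14.4% and 6.44%). The median change of all genes drifted upward too, from 0.01 at day 4 to 0.09, 0.17 and 0.23 on the later days. With TMM scaling, which centres each library on its typical gene, the split was 483 higher and 501 lower at day 4, 700 and 578 at day 5, 781 and 837 at day 7, and 903 and 1080 at day 9, so the excess of higher over lower calls depends on the scaling.

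Single libraries carried part of the early counts. Without BMS replicate 2 at day 4 the 947 calls of that day fell to 109, and without BMSDox replicate 2 to 339. The 1296 calls of day 5 fell to 455 without BMS replicate 2 and to 775 without BMSDox replicate 1. The 2136 calls of day 9 became 1392 without BMS replicate 1, and 1503 without BMSDox replicate 2. For this reason a call printed below is given with the libraries whose removal ended it, and with TMM or edgeR where these ended it. Other settings are not marked by gene. Among these, the fit on only the groups compared ended 190 calls of the genes of the text. The fit on the libraries of clone A2 alone ended 88. A call said to be kept or not lost was not judged by these fits.

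Across the 4 days 3565 genes were called at least once. Of the 2290 that were first called higher, 511 passed first at day 4, 548 at day 5, 605 at day 7 and 626 at day 9. Of the 1275 first called lower the numbers were 436, 271, 272 and 296. A gene called earlier had more later days on which to pass or fail. Of the 511 genes first higher at day 4, 123 (24.1%) were higher on every later day, against 230 of 548 (42.0%) from day 5 and 363 of 605 (60.0%) from day 7. For lower genes the shares were 17.0%, 22.9% and 50.0%. Of all called genes, 31 were called in opposite directions on different days. Of the 511 genes higher at day 4, 301 were also called at day 5, which is 58.9% of the day 4 list and 35.5% of the day 5 list, and 202 were also called at day 9 (39.5% and 13.7%).

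The day on which a gene first passed is not itself a test of timing, so the responses of different days were compared directly. Between day 4 and day 5 no gene's response differed at these thresholds (0.00%; limma gave 699 genes at an unadjusted p under 0.05, and edgeR on recovered reads 453 and also no call). Leaving out 1 library gave 30 calls without BMSDox replicate 1 of day 4, 5 calls without BMSDox replicate 2 of day 5 and none without each other library of these days. Between day 5 and day 7, 6 genes differed (0.0587%), and between day 7 and day 9, 23 (0.225%). The 6 became 57 without BMSDox replicate 2 of day 5 and 20 without BMS replicate 1 of day 5. It became 13 without BMSDox replicate 2 and 10 without BMS replicate 2 of day 7, and 3 without BMS replicate 1 of day 7. The 23 became 83 without BMS replicate 2 and 3 without BMS replicate 1 of day 9. It became 10 without BMSDox replicate 2 of day 9, 8 and 7 without BMS replicates 1 and 2 of day 7, and 14 and 3 without BMSDox replicates 1 and 2 of day 7. With edgeR none of the 6 and none of the 23 was called (unadjusted p under 0.05 for 415 and 780 genes). A fit on only the groups compared also gave 0 and 0. From day 4 to day 9 the response of 660 genes increased and that of 226 decreased (6.45% and 2.21%), or 367 and 413 with TMM. edgeR called 23 and 65, with the lower ones in excess. The fit on only the groups compared called 12 in all. Leaving out 1 library moved the 886 calls of day 4 to day 9 to between 231 (without BMS replicate 1 of day 9) and 1173 (without BMS replicate 2 of day 9), with 289 without BMSDox replicate 2 of day 4, 366 without BMSDox replicate 2 of day 9 and 401 without BMS replicate 2 of day 4.

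**Figure D2:**
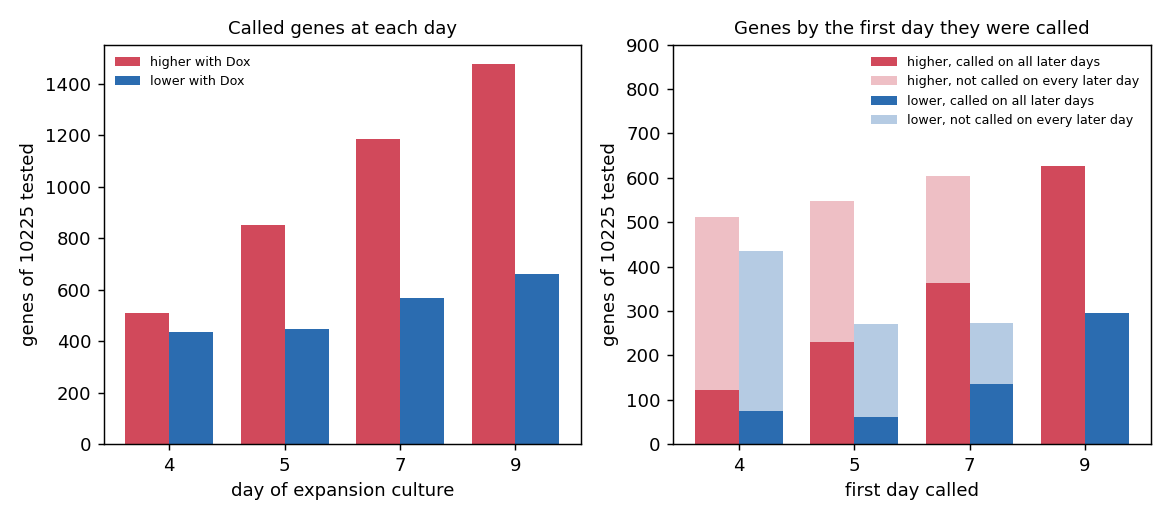
Left, number of genes called higher and lower with Dox by day of culture (bars from 0). Right, number of genes by the first day on which they were called, solid where they were called on every later day and pale where not; higher calls grew from 511 to 1477, and the solid share of the first-called higher genes from 24.1% at day 4 to 60.0% at day 7.

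Some genes were higher with Dox on all 4 days. Slc13a2, a sodium-coupled carrier of citrate and related dicarboxylates (chr11:78397087-78422217), held 1.02 and 1.21 RPM at day 4, 1.81 and 0 at day 5, 0.396 and 1.7 at day 7 and 1.12 and 1.63 at day 9 with BMS. BMSDox gave 35 and 41.5 RPM at day 4, 81.3 and 61 at day 5, 67.7 and 47.4 at day 7 and 55.4 and 54 at day 9. It was close to silent in all 8 BMS libraries and raised in all 8 BMSDox libraries. Its changes at days 4 and 5 were the largest of all genes tested. It was thus named by a rule that also asked for no overlap between the groups. The change was 4.21 ± 0.46 (adjusted p = 5.7e-11) at day 4, 5.41 ± 0.46 at day 5, 4.89 ± 0.46 at day 7 and 4.56 ± 0.46 (adjusted p = 1.6e-13) at day 9 by limma, and the response did not differ between days 4 and 9 beyond its error (0.35 ± 0.65).

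Rec8, which codes for the meiotic cohesin subunit that holds sister chromatids together until the meiotic divisions (chr14:55618037-55625395), was also higher on all 4 days. It held 14.3 and 8.07 RPM at day 4, 13 and 13.9 at day 5, 16.2 and 9.86 at day 7 and 23.6 and 16.6 at day 9 with BMS. With Dox the levels were 78.8 and 75.9 RPM at day 4, 122 and 88 at day 5, 140.1 and 119.8 at day 7 and 111 and 119 at day 9. No BMS library reached the lowest BMSDox library. Its change was 2.73 ± 0.43 (adjusted p = 5.3e-06) at day 4 and 2.48 ± 0.43 (adjusted p = 3e-06) at day 9 by limma, with −0.26 ± 0.61 for the difference between those responses.

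Mxd4, a MAX partner that represses E-box genes, changed by 2.97 ± 0.49 (adjusted p = 1.4e-05) at day 4 and 2.60 (adjusted p = 1.8e-05) at day 9 by limma. Trim36, a ubiquitin ligase, changed by 2.88 (adjusted p = 2.2e-05) and 1.81 (adjusted p = 0.0025). C2cd4b was at 0 in all 8 BMS libraries and held 11.5 and 7.85 RPM at day 4, 13 and 2.0 at day 5, 7.49 and 3.24 at day 7 and 10.6 and 5.68 at day 9 with BMSDox. Against a floor of 3 reads over the group this was at least 17.2-fold higher at day 4 and at least 17.5-fold higher at day 9. Its fitted change at day 5 (2.70) moved to 1.58 without BMSDox replicate 1. Wnt4, a secreted ligand known from ovarian development, changed by 2.83 (adjusted p = 0.00075), 3.92 (adjusted p = 1.3e-06), 3.53 (adjusted p = 3.6e-06) and 2.22 (adjusted p = 0.0028) on the 4 days, and its day 4 call was lost without BMS replicate 2 (2.19, adjusted p = 0.11).

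To be tested, a gene had to reach 10 RPM in 2 of the 16 libraries. Genes silent in BMS could do so only through BMSDox libraries. The counts and medians of the lists here and below are therefore partly set by this filter. They stand beside 5.00%, 8.30%, 11.6% and 14.4% of all genes tested called higher on the 4 days. The shares called lower were 4.26%, 4.37%, 5.54% and 6.44%. Of 15 listed regulators of meiotic entry, 11 passed the filter on low values and were tested, and of these 3 were higher at day 4, 7 at day 5, 9 at day 7 and 9 at day 9, and none was lower. Their median change was 0.99, 1.65, 3.25 and 2.96 on the 4 days, beside 0.01, 0.09, 0.17 and 0.23 for all genes. The list is a broad one. Its largest change at day 4 (2.73) was that of Rec8, which is counted again among the cohesin genes below. Its medians of days 4, 5 and 9 were the changes of Mael, a gene of transposon defence that was not called at day 4. Stra8, which with MEIOSIN turns on the meiotic programme (chr6:34920163-34939344), held 5.1 and 0.807 RPM at day 4, 1.51 and 0 at day 5, 0.396 and 0.68 at day 7 and 1.12 and 1.63 at day 9 with BMS. The Dox arm stood at 27 and 11.2 RPM at day 4, 41.5 and 22 at day 5, 44.9 and 36 at day 7 and 38 and 29.3 at day 9. Every BMSDox library exceeded every BMS library, and the response at day 9 minus day 4, 1.39 ± 0.98 on the log2 scale, was not called. The change was 2.48 ± 0.69 (adjusted p = 0.0099) at day 4, 4.30 ± 0.69 (adjusted p = 3.1e-06) at day 5, 4.75 ± 0.69 (adjusted p = 7.7e-08) at day 7 and 3.87 ± 0.69 (adjusted p = 6.5e-06) at day 9 by limma. The day 4 call was lost without BMSDox replicate 1 (1.88, adjusted p = 0.13) and without BMS replicate 2 (1.60, adjusted p = 0.35).

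Meioc, which with YTHDC2 acts on RNA to end the mitotic programme, had a response that grew over the days. It held 7.82 and 2.82 RPM at day 4, 9.67 and 2.32 at day 5, 13.1 and 3.4 at day 7 and 1.88 and 10.7 at day 9 with BMS. The BMSDox libraries held 44.7 and 12 RPM at day 4, 38.6 and 104 at day 5, 111 and 168 at day 7 and 116 and 284 at day 9. The groups did not overlap on any day, and the 2 BMSDox libraries of day 4 lay wide apart. Its change was 2.07 ± 0.65 (adjusted p = 0.023), 3.44 ± 0.65 (adjusted p = 6.8e-05), 4.13 (adjusted p = 5e-07) and 4.98 (adjusted p = 2e-09) by limma, and the response at day 9 exceeded that at day 4 by 2.91 ± 0.92 (adjusted p = 0.03). The day 4 call was lost with edgeR (2.33, adjusted p = 0.17), without BMSDox replicate 1 (1.16, adjusted p = 0.35) and without BMS replicate 2 (1.47, adjusted p = 0.37), the day 5 call with edgeR (3.24, adjusted p = 0.057), and the difference between days with TMM (2.68, adjusted p = 0.053), with edgeR (2.36, adjusted p = 0.39), without BMSDox replicate 2 of day 4 (2.00, adjusted p = 0.28), without BMSDox replicate 2 of day 9 (2.27, adjusted p = 0.2), without BMS replicate 1 of day 4 (2.31, adjusted p = 0.14) and without BMS replicate 1 of day 9 (1.90, adjusted p = 0.33).

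Zfp541, a zinc finger protein of meiotic prophase, first passed at day 5. It held 0.68 and 0.403 RPM at day 4, 0 and 0 at day 5, 0.396 and 0.34 at day 7 and 0.75 and 0.65 at day 9 with BMS. The BMSDox libraries held 2.65 and 2.62 RPM at day 4, 55.2 and 49 at day 7 and 72.3 and 89 at day 9, with a mean of 7.65 ± 3.34 RPM (SD, n = 2) at day 5. The arms did not overlap on any day, and with 0 reads in BMS at day 5 the rise there was at least 11.4-fold. The change was 1.24 ± 0.53 (adjusted p = 0.1), which was not called, then 3.06 ± 0.53 (adjusted p = 1.1e-05) and 5.28 (adjusted p = 9.7e-14), and the response grew by 4.33 ± 0.75 (adjusted p = 4e-05) from day 4 to day 9. No left-out library ended these calls, and the growth was lost with edgeR (4.34, adjusted p = 0.068).

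Prdm9, the histone methyltransferase that places meiotic breaks, and Mael, a component of germline transposon defence, also first passed at day 5. Prdm9 differed between the arms by 1.30 (adjusted p = 0.13) at day 4, 2.58 (adjusted p = 0.00096) at day 5 and 4.53 (adjusted p = 1.8e-09) at day 9 by limma. Its day 5 call was lost without BMS replicate 2 (2.00, adjusted p = 0.081). The difference for Mael was 0.99 (adjusted p = 0.051), 1.65 (adjusted p = 0.00055) and 2.96 (adjusted p = 2.2e-10) on the same days, with no call lost. Ccnb3, a meiotic cyclin, had no read in any BMS library and 0 or at most a few reads in BMSDox through day 5, then 12.5 and 12.6 RPM at day 7 and 20.0 and 30.3 at day 9, which is at least 22.8-fold and 43.8-fold higher.

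Of 9 cohesin genes, Rec8 and Stag3 were higher at day 4 and joined by Smc1b and Rad21l from day 5, giving 4 of 9 higher on each later day. The subunits Rad21 and Smc1a, which also serve mitotic cohesin, were lower at day 4, with changes of −1.22 ± 0.35 (adjusted p = 0.011) and −1.08 ± 0.29 (adjusted p = 0.0067). The call of Rad21 was lost without BMSDox replicate 2 (−1.06, adjusted p = 0.14) and without BMS replicate 2 (−0.95, adjusted p = 0.25). That of Smc1a was lost with edgeR (−1.01, adjusted p = 0.052), without BMSDox replicate 2 (−0.48, adjusted p = 0.47) and without BMS replicate 2 (−0.94, adjusted p = 0.17). The list's median change stayed near that of all genes (−0.19, 0.02, 0.02 and 0.26). Stag3 changed by 1.18 (adjusted p = 0.0062), 1.02 (adjusted p = 0.014), 1.76 (adjusted p = 6.8e-06) and 1.59 (adjusted p = 3.5e-05) by limma. Its day 4 call was lost without BMSDox replicate 2 (1.14, adjusted p = 0.072) and without BMS replicate 1 (0.83, adjusted p = 0.13), and its day 5 call with TMM (0.92, adjusted p = 0.021), with edgeR (0.96, adjusted p = 0.017), without BMSDox replicate 1 (1.05, adjusted p = 0.068), without BMSDox replicate 2 (0.99, adjusted p = 0.074) and without BMS replicate 1 (0.84, adjusted p = 0.12). The changes of Smc1b were 0.90 (adjusted p = 0.069), 1.58 (adjusted p = 0.00064), 2.89 (adjusted p = 2.3e-10) and 2.42 (adjusted p = 3.5e-08), called from day 5 on, and none of these calls was lost.

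None of the 11 tested synaptonemal complex and HORMA domain genes (12 listed) was called at day 4, when their median change was −0.01, but 6 were higher at day 5, 8 at day 7 and 8 at day 9 (medians 1.17, 3.02 and 2.69). Sycp2, an axis component, held 6.12 and 2.82 RPM at day 4, 2.12 and 5.41 at day 5, 1.98 and 1.36 at day 7 and 3.0 and 9.11 at day 9 with BMS. In the presence of Dox the values were 11.9 and 4.49 RPM at day 4, 15.1 and 52 at day 5, 123 and 129 at day 7 and 128 and 207 at day 9. The groups overlapped at day 4 and stood apart from day 5 on. The change was 0.69 ± 0.58 (adjusted p = 0.45) at day 4, 2.71 ± 0.58 (adjusted p = 0.00045) at day 5 and 5.58 ± 0.58 (adjusted p = 5.4e-13) at day 7 by limma. The day 5 call was lost without BMSDox replicate 2 (1.84, adjusted p = 0.068), while the increase of the response from day 4 to day 9, 4.00 ± 0.83 (adjusted p = 0.00066), was kept without any 1 library and lost with edgeR (3.70, adjusted p = 0.066). From day 4 to day 9 the response increased for 6 of the 11 genes, and between neighbouring days it differed for none.

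Sycp3, the partner of SYCP2, changed by 0.99 (adjusted p = 0.19), 2.31 (adjusted p = 0.00062), 3.66 (adjusted p = 2.1e-08) and 2.69 (adjusted p = 1.9e-05) by limma. Syce1, of the central element, and Hormad1, which marks unsynapsed axes, first passed at day 7: The difference for Syce1 was 1.04 (adjusted p = 0.084) at day 5 and 3.21 (adjusted p = 7.6e-09) at day 7. For Hormad1 it was 0.62 (adjusted p = 0.4) and 1.91 (adjusted p = 0.0017). Sycp1, the transverse filament, went from −0.37 ± 0.66 (adjusted p = 0.76) at day 4 to 4.82 ± 0.66 (adjusted p = 5.7e-09) at day 9. That growth of its response, 5.19 ± 0.93 (adjusted p = 6.6e-05), was also kept without any 1 library.

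Of 16 tested genes for the making and repair of meiotic breaks (20 listed), 0 were higher at day 4, 3 at day 5, and 10 on both day 7 and day 9, with 1 lower at day 7, and the medians were 0.26, 0.70, 1.84 and 2.25. The response increased from day 4 to day 9 for 8 of the 16 and differed between neighbouring days for none. Mei1, which is needed for break formation, held 0 and 0 RPM at day 5, 0.396 and 0 at day 7 and 1.5 and 0 at day 9 with BMS. BMSDox gave 0 and 3.5 RPM at day 5, 13.9 and 13.4 at day 7 and 22.2 and 34.1 at day 9. It was at or near 0 until day 5 in both arms and then apart from day 7. The change was 3.63 ± 0.48 (adjusted p = 4e-09) at day 7 by limma, and the response grew by 4.17 ± 0.69 (adjusted p = 1.6e-05) from day 4 to day 9, which was lost with edgeR (4.81, adjusted p = 0.34). Tex15, a germ cell factor for break repair and transposon silencing, passed at day 5 with 1.95 ± 0.37 (adjusted p = 6.2e-05) and reached 3.84 (adjusted p = 1e-14) at day 9. Dmc1, the meiotic recombinase, changed by 1.08 (adjusted p = 0.082) at day 5 and 2.06 (adjusted p = 0.00026) at day 7.

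Of 8 tested crossover genes (12 listed), 0, 1, 7 and 7 were higher on the 4 days (medians 0.50, 0.97, 2.73 and 2.49), and of all 7 listed genes for telomere attachment, 0, 3, 5 and 5 (0.85, 1.50, 2.49 and 2.24). Rnf212, which stabilises recombination intermediates, was the crossover gene of day 5, with 2.75 ± 0.56 (adjusted p = 0.00021) by limma. Tex11, of the same pathway, held 6.46 and 3.63 RPM at day 4, 5.44 and 4.64 at day 5, 0.793 and 2.38 at day 7 and 1.12 and 1.63 at day 9 with BMS. With Dox the levels were 4.42 and 2.99 RPM at day 4, 1.22 and 9.0 at day 5, 36 and 22.7 at day 7 and 47.1 and 31.2 at day 9. Its groups overlapped through day 5 and stood apart from day 7. Its change was −0.35 (adjusted p = 0.72) at day 5 and 3.59 (adjusted p = 6.4e-07) at day 7, and it was 1 of the 6 genes whose response differed between those days (3.94 ± 0.81, adjusted p = 0.0067). That difference was lost with edgeR (4.10, adjusted p = 0.48), without BMSDox replicate 1 of day 5 (2.86, adjusted p = 0.46), without BMSDox replicate 1 of day 7 (3.62, adjusted p = 0.18) and without BMS replicate 1 of day 7 (3.48, adjusted p = 0.25). Hfm1, a helicase for crossovers, changed by 1.03 (adjusted p = 0.15) and 3.14 (adjusted p = 9.8e-07), and Terb1, a telomere adaptor, by 1.50 (adjusted p = 0.055) and 3.66 (adjusted p = 4.2e-07).

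**Figure D3:**
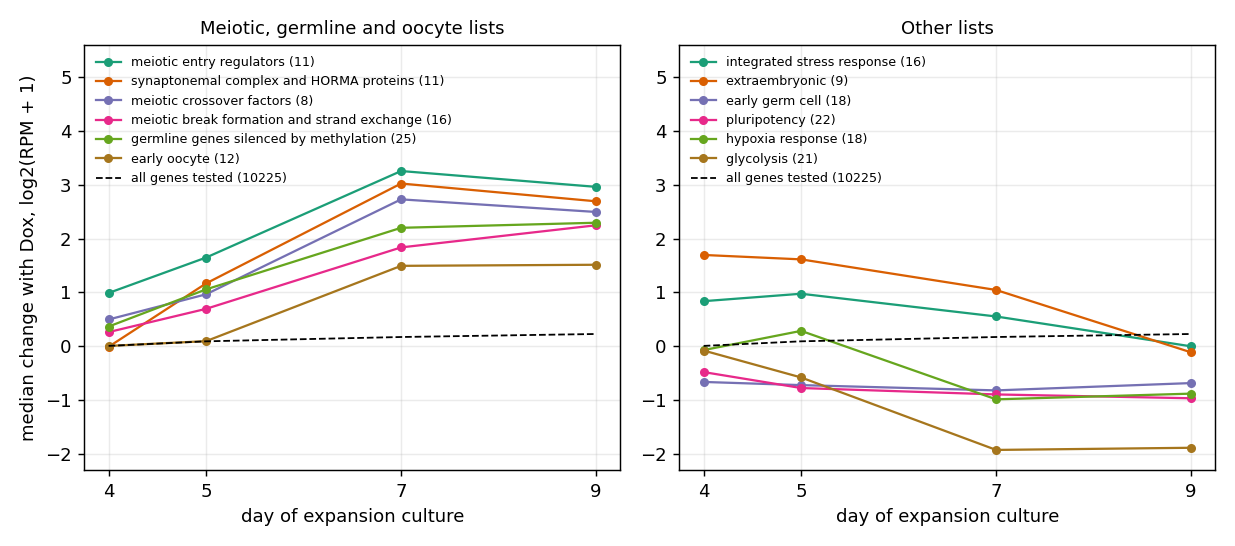
Median change (log2 scale, vertical) of gene lists by day of culture (horizontal), with meiotic, germline and oocyte lists on the left and other lists on the right; the dashed line is the median of all genes tested. The list of meiotic entry regulators, which also counts Rec8 and Mael, is at 0.99 at day 4. The synaptonemal complex list starts at −0.01 and reaches 3.02 at day 7, and glycolysis falls to −1.92 at day 7.

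Of 25 tested germline genes that DNA methylation and repressors keep silent in other cells (27 listed), 3 were higher at day 4, 11 at day 5, 20 at day 7 and 22 at day 9, and 1, Tdrd12, was lower from day 5 (medians 0.37, 1.06, 2.20 and 2.29). Of its 27 genes 6, such as Dazl, Sycp3 and Hormad1, are also in the meiotic lists. Another overlap is with the piRNA list, which shares 10. Tex101, a germ cell surface protein, held 5.44 and 3.63 RPM at day 4, 6.65 and 0.773 at day 5, 3.17 and 2.04 at day 7 and 16.5 and 13 at day 9 with BMS. The Dox arm stood at 15.9 and 16.8 RPM at day 4, 35.8 and 47 at day 5, 286 and 213 at day 7 and 394 and 379 at day 9. The groups did not overlap on any day, and the BMSDox level was far higher at days 7 and 9 than at day 4. Its change was 1.67 ± 0.58 (adjusted p = 0.04), 3.51 ± 0.58 (adjusted p = 4.3e-06), 6.12 (adjusted p = 6.1e-15) and 4.63 (adjusted p = 5e-10) by limma, and 2.96 ± 0.82 (adjusted p = 0.013) between day 9 and day 4. The day 4 call was lost without BMSDox replicate 1 (1.71, adjusted p = 0.1), without BMSDox replicate 2 (1.63, adjusted p = 0.18), without BMS replicate 1 (1.91, adjusted p = 0.059) and without BMS replicate 2 (1.43, adjusted p = 0.32), and the difference between days without BMSDox replicate 2 of day 4 (3.00, adjusted p = 0.052).

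Taf7l, a germ cell form of a general transcription factor subunit, changed by 4.41 (adjusted p = 2.7e-08) at day 5 and 6.34 (adjusted p = 2.7e-15) at day 7 by limma. Of 18 tested genes of the piRNA pathway (23 listed), which silences transposons, 2, 5, 11 and 14 were higher on the 4 days (medians 0.19, 0.64, 1.49 and 1.70), and 2, Tdrd12 and Gtsf1l, were lower from day 5. Mov10l1, an RNA helicase that feeds that pathway, changed by 2.15 (adjusted p = 4.4e-06) at day 5 and 2.67 (adjusted p = 3.8e-09) at day 7. Tdrd12, a helicase of the same pathway, went the opposite way, by −0.60 (adjusted p = 0.19), −1.17 (adjusted p = 0.0042), −1.59 (adjusted p = 4.1e-05) and −1.83 (adjusted p = 1.8e-06). Its day 5 call was lost without BMS replicate 2 (−1.11, adjusted p = 0.068).

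Early oocyte genes were called mainly from day 7. Of 12 tested (31 listed), 2 were higher at day 4, 2 at day 5 with 1 lower, 7 at day 7, and 8 at day 9 with 2 lower (medians 0.01, 0.10, 1.49 and 1.51). The filter on low values was passed by Figla, Lhx8 and Nobox only through BMSDox libraries of days 7 and 9. These late counts and medians are therefore partly set by the filter. Figla, the regulator of zona pellucida genes and of follicle formation, held 0 and 0.403 RPM at day 4, 0 and 1.55 at day 5, 0 and 0 at day 7 and 0 and 3.25 at day 9 with BMS. The BMSDox libraries held 0 and 0 RPM at day 4, 0 and 1.0 at day 5, 27.8 and 16.6 at day 7 and 44.5 and 37.9 at day 9. It held at most a few reads in every library of days 4 and 5 and none in BMS at day 7, and was well above that in all 4 BMSDox libraries of days 7 and 9. The day 7 rise was at least 41.1-fold, and the response differed between day 5 and day 7 by 4.67 ± 0.73 (adjusted p = 5.1e-05) by limma, a call lost with edgeR (8.76, adjusted p = 1).

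Lhx8, another oocyte transcription factor, switched in the same interval. It held 0 and 1.21 RPM at day 4, 0 and 0 at day 5, 0 and 0 at day 7 and 0 and 0.325 at day 9 with BMS. In the presence of Dox the values were 0.885 and 0 RPM at day 4, 0 and 0 at day 5, 8.55 and 10.5 at day 7 and 20.0 and 33.1 at day 9. No library of days 4 and 5 held more than a few reads, and all 4 later BMSDox libraries did. The rise was at least 17.3-fold at day 7, and the response differed between day 5 and day 7 by 3.39 ± 0.64 (adjusted p = 0.0021). Both Figla and Lhx8 kept that difference without any 1 library, and that of Lhx8 was lost with edgeR (7.43, adjusted p = 1). Besides Tex11, the other gene whose response increased between those days was Pet2 (4.27 ± 0.85, adjusted p = 0.0038), whose call was lost with edgeR (5.39, adjusted p = 0.61), without BMSDox replicate 1 of day 5 (3.61, adjusted p = 0.15) and without BMS replicate 1 of day 7 (4.07, adjusted p = 0.1).

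Nobox, which acts with these factors in oocytes, passed earlier. It held no read in BMS at days 4, 5 and 9 and 0.396 and 0.34 RPM at day 7, and 3.1 and 0 RPM at day 4, 7.73 and 4.5 at day 5 and 20.7 and 22.7 at day 7 with BMSDox. The rise was at least 9.63-fold at day 5, and its response grew by 4.28 ± 0.62 (adjusted p = 1.3e-06) from day 4 to day 9, a call lost with edgeR (adjusted p = 1). Sohlh1, the germ cell bHLH factor upstream of them, changed by 0.91 (adjusted p = 0.13) at day 5 and 3.01 (adjusted p = 2.4e-08) at day 7 by limma. Ybx2, which stores messages in oocytes and sperm, was called on all 4 days, with changes of 1.40 (adjusted p = 0.0053), 1.64 (adjusted p = 0.0006), 1.68 (adjusted p = 0.00019) and 1.63 (adjusted p = 0.00023), and with the day 4 call lost without BMSDox replicate 2 (1.33, adjusted p = 0.07) and without BMS replicate 1 (0.99, adjusted p = 0.12).

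Tle6, a maternal gene of the subcortical complex, changed sign. Its change was −0.76 (adjusted p = 0.075), −1.21 (adjusted p = 0.0021), −0.97 (adjusted p = 0.011) and 1.13 (adjusted p = 0.0021) on the 4 days, and the response differed between day 7 and day 9 by 2.10 ± 0.42 (adjusted p = 0.0084) by limma. The lower call of day 5 was lost with edgeR (−1.46, adjusted p = 0.11) and without BMS replicate 2 (−1.12, adjusted p = 0.055). The higher call of day 9 was lost with TMM (0.88, adjusted p = 0.019), with edgeR (0.94, adjusted p = 0.2) and without BMS replicate 2 (0.83, adjusted p = 0.081). The difference between days was lost with edgeR (2.21, adjusted p = 0.53), without BMSDox replicate 2 of day 7 (1.86, adjusted p = 0.1), without BMSDox replicate 2 of day 9 (1.99, adjusted p = 0.051) and without BMS replicate 2 of day 7 (1.89, adjusted p = 0.096).

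Some genes of the earlier state were lower with Dox. Of 18 tested early germ cell genes (20 listed), 3, 6, 6 and 6 were lower on the 4 days and none was higher (medians −0.66, −0.72, −0.82 and −0.68). Of 22 tested pluripotency genes (24 listed) 2, 4, 9 and 8 were lower and none was higher (−0.48, −0.77, −0.89 and −0.96). Among all genes tested 4.26%, 4.37%, 5.54% and 6.44% were lower. In BMS without Dox, 7 of the 18 early germ cell genes were lower at day 9 than at day 4 (median −0.89). With BMSDox 8 were (−1.02), and the response of none differed between these days. Of the 22 pluripotency genes 1 was lower and 2 were higher in BMS, and 5 were lower with BMSDox. The response of 3 decreased. Zfp42, the pluripotency marker REX1, held 145 and 156 RPM at day 4, 145 and 149 at day 5, 218 and 125 at day 7 and 109 and 117 at day 9 with BMS. BMSDox gave 73.9 and 48.6 RPM at day 4, 55.3 and 62 at day 5, 36.4 and 40.1 at day 7 and 46 and 37.9 at day 9. All BMSDox libraries were below all BMS libraries from day 4 on. Its change was −1.31 ± 0.26 (adjusted p = 0.00029), −1.31 (adjusted p = 0.00014), −2.09 (adjusted p = 5.4e-10) and −1.42 (adjusted p = 9.7e-06) by limma, and the response at day 9 minus day 4 was −0.10 ± 0.37.

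Tdgf1, a NODAL co-receptor of pluripotent cells, was called from day 5 on. It held 109 and 55.7 RPM at day 4, 142 and 63.4 at day 5, 287 and 94.5 at day 7 and 204 and 137 at day 9 with BMS. With Dox the levels were 43.8 and 19.8 RPM at day 4, 19.5 and 22 at day 5, 13.9 and 12.9 at day 7 and 16.6 and 14.2 at day 9. The BMSDox libraries were lower on every day, and the 2 BMS libraries lay far apart at day 7. Its change was −1.37 (adjusted p = 0.14), −2.15 ± 0.64 (adjusted p = 0.012), −3.52 (adjusted p = 1.3e-05) and −3.36 (adjusted p = 2.2e-05), with the day 5 call lost without BMSDox replicate 1 (−2.06, adjusted p = 0.085) and without BMS replicate 1 (−1.57, adjusted p = 0.17). Pou5f1, the core pluripotency factor OCT4, and Nanog changed by −2.36 (adjusted p = 4.3e-05) and −1.89 (adjusted p = 0.0014) at day 7 by limma, and by −1.79 (adjusted p = 0.0014) and −1.69 (adjusted p = 0.0032) at day 9. The day 9 call was lost without BMSDox replicate 2 (−1.41, adjusted p = 0.065) for Pou5f1 and without BMSDox replicate 2 (−1.21, adjusted p = 0.13) for Nanog.

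Some falls were already called at day 4. Galnt7, a glycosyltransferase, held 37.4 and 48 RPM at day 4 with BMS and 2.65 and 3.37 RPM with BMSDox, and changed by −3.44 ± 0.49 (adjusted p = 4.7e-07) at day 4 and −2.35 (adjusted p = 0.00028) at day 5 by limma, then −1.22 (adjusted p = 0.056) at day 7, not called. Hey1, a target of NOTCH and BMP signals, held 39.4 and 90.0 RPM at day 4 and 15.4 and 15.6 at day 9 with BMS. The Dox arm stood at 7.96 and 16.4 RPM at day 4 and 4.14 and 2.84 at day 9. It was lower with Dox on both days, and its BMS level was lower at day 9 than at day 4. The change was −2.28 (adjusted p = 0.00023), −2.54 (adjusted p = 1.4e-05), −2.13 (adjusted p = 0.00011) and −1.89 (adjusted p = 0.00047), with the day 4 call lost without BMS replicate 2 (−1.69, adjusted p = 0.093). Gstm3, a glutathione transferase, changed by −3.09 (adjusted p = 8.4e-07) at day 5 and −2.85 (adjusted p = 8.3e-07) at day 9.

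Cyp26a1, the enzyme that degrades retinoic acid, had more than a few reads only in BMS. It held 1.02 and 0.807 RPM at day 4, 0.302 and 3.09 at day 5, 27 and 18.4 at day 7 and 6.0 and 7.48 at day 9 with BMS. The BMSDox libraries held 0.885 and 0 RPM at day 4, 0 and 0 at day 5, 0 and 0 at day 7 and 0.377 and 0.947 at day 9. No BMSDox library passed the level of a few reads on any day, and the BMS libraries were high at day 7. With Dox it was at least 39.3-fold lower at day 7, and the change at day 9 was −2.23 ± 0.63 (adjusted p = 0.0035) by limma. Of the 11 retinoic acid genes tested (28 listed), 3, 2, 3 and 2 were higher and 0, 1, 2 and 2 lower on the 4 days. Their medians were 0.94, 0.82, 0.82 and 0.41. Of all genes tested, 5.00%, 8.30%, 11.6% and 14.4% were higher and 4.26%, 4.37%, 5.54% and 6.44% lower. The largest rise of this list on each day was that of Stra8, already counted among the regulators of meiotic entry.

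Glycolysis genes were lower with Dox from day 7, and in the BMS arm their own level was higher late than early. Of 21 tested glycolysis genes (23 listed), 1 was lower at day 4, 1 at day 5, 17 at day 7 and 18 at day 9, none was higher, and the medians were −0.08, −0.58, −1.92 and −1.88. Pgk1, an enzyme of glycolysis, held 273 and 373 RPM at day 4, 332 and 442 at day 5, 1278 and 943 at day 7 and 2062 and 1494 at day 9 with BMS. In the presence of Dox the values were 266 and 245 RPM at day 4, 203 and 323 at day 5, 150.4 and 149 at day 7 and 485 and 219 at day 9. The BMS libraries of days 7 and 9 were far above all others, and of the BMSDox libraries only replicate 1 at day 9 exceeded its BMS counterparts of day 4. The change was −2.87 ± 0.41 (adjusted p = 3.1e-08) at day 7 and −2.43 ± 0.41 (adjusted p = 1.4e-06) at day 9 by limma.

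The course within each arm was tested as well. In BMS without Dox, 537 genes were higher and 353 lower at day 9 than at day 4 (5.25% and 3.45%), and with BMSDox 834 and 248 (8.16% and 2.43%). Without BMS replicate 1 of day 9 the 890 calls of the BMS arm fell to 202, and without BMS replicate 2 of day 4 to 285. The 1082 calls of the BMSDox arm fell to 362 without BMSDox replicate 2 of day 4 and to 469 without BMSDox replicate 2 of day 9. Of the 21 glycolysis genes 15 were among the higher ones of the BMS arm (median 1.87).

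Pgk1 was higher at day 9 than at day 4 in BMS by 2.46 ± 0.41 (adjusted p = 8.3e-06) and in BMSDox by 0.35 (adjusted p = 0.6) by limma. Aldoa, another enzyme of glycolysis, gave 2.80 (adjusted p = 8e-06) and 0.87 (adjusted p = 0.19), and Slc2a1, the glucose transporter GLUT1, 2.21 (adjusted p = 1e-05) and 0.33 (adjusted p = 0.59). Pfkl, phosphofructokinase of the liver type, gave 2.93 (adjusted p = 0.00046) and −0.09 (adjusted p = 0.94). All 4 genes were called in the BMS arm and none in the BMSDox arm. The difference itself, the response at day 9 minus that at day 4, was called lower for 10 of the 21 glycolysis genes, beside 2.21% of all genes tested. By limma it was −2.10 ± 0.57 (adjusted p = 0.011) for Pgk1. That of Pgk1 was lost without BMSDox replicate 2 of day 9 (−1.53, adjusted p = 0.16) and without BMS replicate 1 of day 9 (−1.87, adjusted p = 0.098).

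Genes of the response to low oxygen had a similar course, with 7 of 18 tested (20 listed) lower at day 7 and 5 at day 9, 1 higher at day 9, and 10 higher at day 9 than at day 4 in BMS (median changes −0.07, 0.29, −0.98 and −0.88 on the 4 days). Egln1, an oxygen-sensing hydroxylase, was 1 of the 6 genes whose response differed between day 5 and day 7. It held 24.8 and 29.4 RPM at day 5 and 91.6 and 85 at day 7 with BMS. BMSDox gave 50.8 and 47 RPM at day 5 and 33.5 and 41.7 at day 7. The BMSDox libraries were the higher ones at day 5 and the lower ones at day 7. The change was 0.83 (adjusted p = 0.019) at day 5 and −1.22 (adjusted p = 0.00026) at day 7, with −2.05 ± 0.38 (adjusted p = 0.0018) for the difference by limma, a call that was kept without any 1 library and lost with edgeR (−2.19, adjusted p = 0.21). Oxygen in the cultures is not in the labels, and its part in these changes was not tested.

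**Figure D4:**
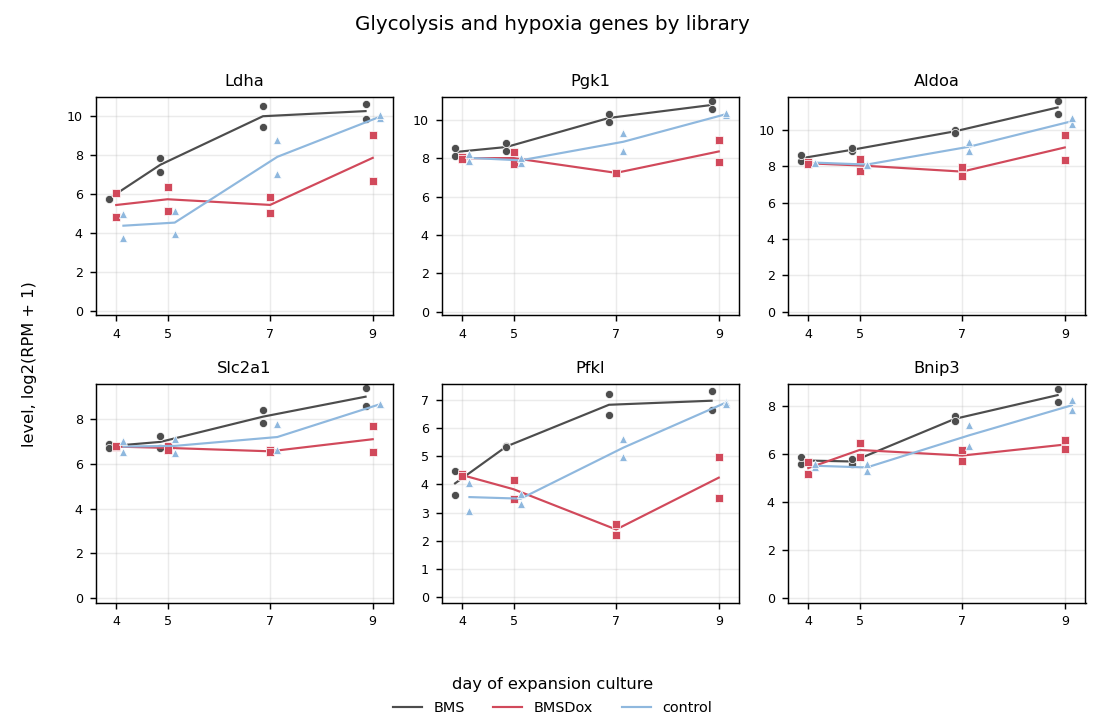
Levels of 6 genes of glucose use and the low-oxygen response as log2(RPM + 1) by day of culture; grey circles are BMS, red squares BMSDox and light blue triangles control medium without Dox, with lines through the means of 2 libraries. In BMS, Pgk1 climbs from 273 and 373 RPM at day 4 to 2062 and 1494 RPM at day 9, and with BMSDox it ends at 485 and 219 RPM.

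A last set was called with Dox early and not called at day 9, which does not show that the effect was gone. By the rule that the call at day 4 or 5 was absent at day 9 and that the response had changed back by then, 72 genes were transiently higher (46 from day 4 and 26 from day 5) and 97 transiently lower (62 and 35). These are out of 10225 genes tested and 3565 called at least once. The rule rests on differences between days, and the 886 of day 9 minus day 4 fell to 88 with edgeR and 12 with only the groups compared. Gpx3, a secreted glutathione peroxidase, held 12.6 and 2.42 RPM at day 4, 13.9 and 7.73 at day 5, 24.2 and 20.1 at day 7 and 28.1 and 50.1 at day 9 with BMS. With Dox the levels were 64.6 and 72.5 RPM at day 4, 83.4 and 58.5 at day 5, 101 and 61.9 at day 7 and 87 and 70.0 at day 9. The BMSDox libraries stayed at one level, while the BMS libraries climbed towards it. At day 9 the BMSDox libraries were still the higher ones. The change was 3.35 ± 0.44 (adjusted p = 2.6e-08), 2.63 (adjusted p = 5.7e-06), 1.80 (adjusted p = 0.0011) and 1.04 (adjusted p = 0.061) by limma, and the BMS arm alone rose by 2.50 ± 0.44 (adjusted p = 2.6e-05) from day 4 to day 9. The day 7 call was lost without BMSDox replicate 1 (1.45, adjusted p = 0.056), the rise in BMS without BMS replicate 2 of day 4 (1.51, adjusted p = 0.084), and the change of the response between day 4 and day 9 (−2.31) with edgeR (−2.38, adjusted p = 0.075), without BMSDox replicate 2 of day 4 (−2.23, adjusted p = 0.058), without BMSDox replicate 2 of day 9 (−2.16, adjusted p = 0.061), without BMS replicate 2 of day 4 (−1.32, adjusted p = 0.26) and without BMS replicate 2 of day 9 (−1.91, adjusted p = 0.055).

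Acta2, smooth muscle actin, was also higher with Dox early while its BMS arm climbed, but its change was negative at day 9. It held 3.4 and 4.03 RPM at day 4, 13.9 and 1.55 at day 5, 25.8 and 19.7 at day 7 and 33 and 94 at day 9 with BMS. The Dox arm stood at 30.1 and 34.4 RPM at day 4, 41.9 and 39.5 at day 5, 56.3 and 45.3 at day 7 and 12.4 and 42.6 at day 9. The arms were apart through day 7 and overlapped at day 9. Its change was 2.82 (adjusted p = 0.011), 2.76 (adjusted p = 0.0095), 1.13 (adjusted p = 0.31) and −1.23 (adjusted p = 0.24) by limma, and the BMS arm rose by 3.60 ± 0.80 (adjusted p = 0.00095), a call kept without any 1 library. The day 4 call was lost without BMSDox replicate 2 (2.72, adjusted p = 0.1), without BMS replicate 1 (2.72, adjusted p = 0.053) and without BMS replicate 2 (2.92, adjusted p = 0.12), and the day 5 call with edgeR (2.07, adjusted p = 0.06), without BMSDox replicate 1 (2.72, adjusted p = 0.067) and without BMS replicate 2 (1.48, adjusted p = 0.4).

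Krt8, a simple epithelial keratin, changed by 2.48 (adjusted p = 0.01), 1.98 (adjusted p = 0.036), 1.46 (adjusted p = 0.12) and 0.07 (adjusted p = 0.96) by limma. Its day 4 call was lost without BMSDox replicate 2 (2.32, adjusted p = 0.11) and without BMS replicate 2 (1.72, adjusted p = 0.32), and its day 5 call with edgeR (1.69, adjusted p = 0.081), without BMSDox replicate 1 (1.73, adjusted p = 0.2), without BMSDox replicate 2 (2.22, adjusted p = 0.073) and without BMS replicate 2 (1.26, adjusted p = 0.43). Of 9 tested genes of extraembryonic tissue (19 listed), 3, 4, 0 and 0 were higher on the 4 days (medians 1.70, 1.61, 1.05 and −0.11). Among all genes tested the shares were 5.00%, 8.30%, 11.6% and 14.4%. The 6 extraembryonic markers, of which Cdx2, Elf5, Afp and Ttr never passed 5.9 RPM, summed to a mean of 34.3, 42.0, 87.1 and 224 RPM in BMS and 112, 147, 184 and 179 RPM in BMSDox over the 4 days. The part of cells of another type in these changes was not tested.

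Genes of the integrated stress response, which cells switch on when translation or amino acid supply is disturbed, were among those raised early. Of 16 tested (20 listed), 5, 6, 1 and 0 were higher on the 4 days and 2 were lower at day 9 (medians 0.84, 0.98, 0.55 and 0.00). Among all genes tested 5.00%, 8.30%, 11.6% and 14.4% were higher and, at day 9, 6.44% lower. In BMS 6 of the 16 were higher at day 9 than at day 4, beside 5.25% of all genes tested. Trib3, a pseudokinase of that response, held 14.6 and 4.44 RPM at day 4 and 48.8 and 35.8 at day 9 with BMS. The BMSDox libraries held 45.1 and 31.4 RPM at day 4 and 53.9 and 51.1 at day 9. The 2 arms were apart at day 4 and close at day 9, with the BMSDox libraries still the higher ones. The change was 2.07 ± 0.42 (adjusted p = 0.00038) at day 4 and 0.32 (adjusted p = 0.6) at day 9 by limma, and the day 4 call was lost without BMS replicate 2 (1.31, adjusted p = 0.17).

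Aire reversed. This transcriptional regulator, best known from the thymus, held 2.38 and 0.807 RPM at day 4, 3.02 and 0 at day 5, 27.8 and 10.5 at day 7 and 80.7 and 26.7 at day 9 with BMS. In the presence of Dox the values were 7.52 and 7.48 RPM at day 4, 5.29 and 10.5 at day 5, 2.85 and 1.21 at day 7 and 5.28 and 0.947 at day 9. It was higher with Dox at days 4 and 5 at a low level and lower from day 7 on, when the BMS libraries were higher than before. The change was 1.78 (adjusted p = 0.051), 2.08 (adjusted p = 0.016), −2.64 (adjusted p = 0.0012) and −3.77 (adjusted p = 2.7e-06) by limma, and the response differed between day 5 and day 7 by −4.72 ± 0.92 (adjusted p = 0.0034). The BMS arm alone rose by 4.27 (adjusted p = 1.8e-06) from day 4 to day 9. The day 5 call was lost with edgeR (1.85, adjusted p = 0.21), without BMSDox replicate 2 (1.65, adjusted p = 0.16) and without BMS replicate 2 (1.08, adjusted p = 0.47), the day 7 call without BMS replicate 1 (−1.98, adjusted p = 0.069), and the difference between these days with edgeR (−5.19, adjusted p = 0.48), without BMS replicate 2 of day 5 (−3.72, adjusted p = 0.2) and without BMS replicate 1 of day 7 (−4.07, adjusted p = 0.2). Aire overlaps Dnmt3l on the opposite strand, and since the counting is not stated to use strand, reads of the 2 genes may not be told apart.

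**Figure D5:**
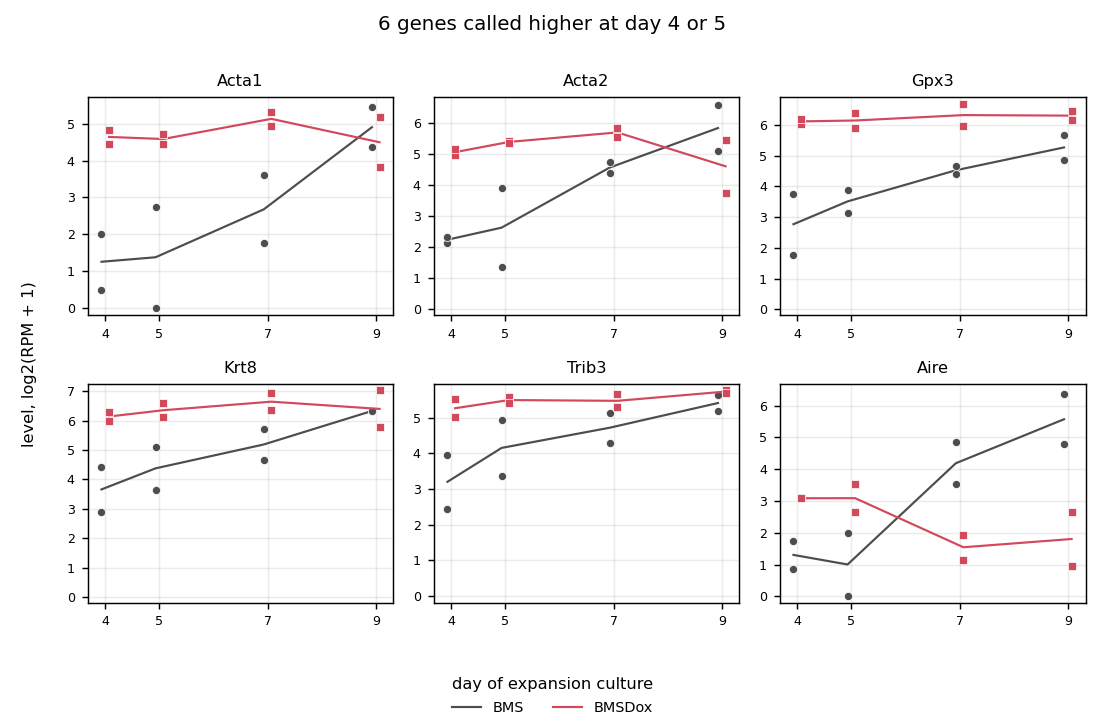
Levels of 6 genes called higher with Dox at day 4 or 5 as log2(RPM + 1) by day of culture, with BMS as grey circles, BMSDox as red squares and lines through the means of 2 libraries. The red line of Gpx3 stays level while the grey one climbs from 12.6 and 2.4 RPM to 28.1 and 50.1 RPM, and the 2 lines of Aire cross between day 5 and day 7.

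At day 9 the same clone was also profiled in control medium with and without Dox. There the mCherry row held 1659 and 925 RPM with Dox, against 11751 and 8929 RPM with BMSDox, and 406 and 162 RPM without. The response to Dox was larger with BMS than in control medium for 137 genes and smaller for 29 of 10718 tested (1.28% and 0.271%), or 55 and 70 with TMM and 11 and 6 with edgeR. Without control replicate 1 these 166 calls fell to 8, without BMS replicate 1 or BMSDox replicate 1 to 65, without Dox replicate 1 to 47, and without Dox replicate 2 to 79. Slc13a2 was among the larger responses (2.85 ± 0.65, adjusted p = 0.0076 by limma), a call lost without BMS replicate 1 (2.69, adjusted p = 0.052), without Dox replicate 2 (2.46, adjusted p = 0.083) and without control replicate 1 (2.83, adjusted p = 0.091). Rec8 gave 1.85 (adjusted p = 0.093) and Figla −0.05 (adjusted p = 0.99). The dose of the transgene and the BMS treatment cannot be told apart in this comparison, since the mCherry level with Dox differed with the treatment.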

How the data were processed

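Per the labels' protocols, 1 ng of RNA served to amplify message 3′ ends for a NextSeq 500. The submitters' processing notes name HTSeq 0.9.1, SAMtools 1.3, TopHat2 2.1.0, Bowtie 1.1.2 and cutadapt 1.9.1, and the build mm10. No molecular identifiers are stated. The authors deposited RPM (reads per gene scaled to a total of 1000000), and columns that their 3 transgene rows lift above that total were handled as the authors' signal on the same scale. All values of the 16 libraries were whole reads within 0.05. Of 195 value columns, 194 matched a sample and 1 was not used, and 3 shifted lines were realigned. The test was limma 3.58.1 (R 4.3.3) with mean-variance trend on log2(RPM + 1), 1 model over 191 libraries of 98 groups without a replicate block, for genes with 10 RPM in 2 of the 16 libraries, adjusted over all genes tested by the method of Benjamini and Hochberg. It was tested on simulated data with known changes. Log2 changes understate low genes. edgeR 4.0.16 on recovered reads was added after seeing the data. Named genes followed a fixed rule (in each day, up to 6 per direction with a mean of 20 RPM) and 32 gene lists. The members, lists and tests were chosen with earlier results of these data known. Gene positions are from GENCODE M21 and promoters from RefSeq. Differences from the responses in control medium at days 4, 5 and 7 were computed but are not reported here, because those Dox libraries follow another extraction protocol.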

Additional observations from a re-analysis of the deposited data

Results flagged for a closer look

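Differences between responses under the same contrast were called for 6 genes between day 5 and day 7, for 23 between day 7 and day 9, for 886 between day 4 and day 9, and for 166 between BMS and control medium at day 9, each by an interaction contrast of limma. Between day 5 and day 7 the response increased for Figla (4.67), Pet2 (4.27) and Tex11 (3.94) and decreased for Egln1 (−2.05), as log2 differences. Between day 4 and day 9 it increased for Sycp1 (5.19), Il18 (4.85), Pet2 (4.70), Lhx8 (4.65), Xlr4c (4.61) and Figla (4.59). It decreased for Aire (−5.55), Armcx1 (−4.89), Igfbp2 (−4.10), Acta2 (−4.05), Acta1 (−3.80) and Dnmt3l (−3.79). Of these 12, the 6 that increased and Aire kept their call without any 1 library. Armcx1 lost it without BMSDox replicate 2 of day 9 (−2.68, adjusted p = 0.17 by limma), Acta1 without BMS replicate 2 of day 4 (−3.03, adjusted p = 0.077), and Igfbp2 without either of those libraries (−3.08, adjusted p = 0.065, and −3.07, adjusted p = 0.062). Acta2 lost it without BMSDox replicate 2 of day 4 (−3.96, adjusted p = 0.067), BMSDox replicate 1 of day 9 (−3.20, adjusted p = 0.091) or BMS replicate 2 of day 9 (−3.31, adjusted p = 0.069). Dnmt3l lost it without BMS replicate 2 of day 4 (−2.50, adjusted p = 0.24), BMS replicate 1 of day 9 (−2.94, adjusted p = 0.19), BMSDox replicate 2 of day 4 (−3.90, adjusted p = 0.063) or BMSDox replicate 2 of day 9 (−3.57, adjusted p = 0.085). With edgeR Sycp1, Aire and Acta2 kept it and the other 9 did not. Il18 contains Tex12 on the opposite strand, as Aire overlaps Dnmt3l, and reads of such pairs may not be told apart. At day 9 the response was larger with BMS than in control medium for Sp5 (5.63), Lefty2 (4.67), Hand1 (4.38), Lefty1 (4.03) and Ldha (3.94), and smaller for Msh4 (−2.97). Sp5 kept its call without any 1 library and with edgeR, while none of the other 5 was called with edgeR or without control replicate 1 (Lefty2 4.29, adjusted p = 0.069, Hand1 4.05, adjusted p = 0.15, Lefty1 3.42, adjusted p = 0.15, Ldha 4.02, adjusted p = 0.19, and Msh4 −2.75, adjusted p = 0.091). Hand1 also lost it without BMSDox replicate 1 (2.83, adjusted p = 0.26), the library in which its level stood apart, or Dox replicate 1 (4.40, adjusted p = 0.057), and Msh4 without BMS replicate 1 (−2.60, adjusted p = 0.064). Ldha lost it with TMM (3.71, adjusted p = 0.054) and without any 1 of the 8 libraries but BMSDox replicate 2, with adjusted p between 0.066 and 0.31.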

How the results depend on the processing

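Leaving out 1 library gave 109 to 1129 calls at day 4, 455 to 1391 at day 5, 1210 to 1595 at day 7 and 1392 to 2171 at day 9, and 0 to 30 (day 5 minus day 4), 3 to 57 (day 7 minus day 5), 3 to 83 (day 9 minus day 7) and 231 to 1173 (day 9 minus day 4) differing responses. It gave 8 to 218 calls against control medium, 202 to 1136 within BMS and 362 to 1435 within BMSDox. Calling at a change of 2 left 147, 300, 399 and 454 genes on the 4 days, 7 for day 9 minus day 7, 334 for day 9 minus day 4, 72 against control medium, 210 within BMS and 256 within BMSDox. At that threshold 816 genes were called at least once, 147, 221, 242 and 206 first on each day, 17 on all 4 days, 41 transiently and 191 late. Fitting only the groups compared gave 255 genes at day 4, 299 at day 5, 0, 0 and 12 for the 3 later differences, 110 against control medium, 276 within BMS and 653 within BMSDox. edgeR gave 473 at day 4, 639 at day 5, 0, 0 and 88 for those differences, 17 against control medium, 455 within BMS and 517 within BMSDox. A pseudocount of 5 gave 1, 39 and 266 calls for day 5 minus day 4, day 7 minus day 5 and control medium. No filter gave 3, 32 and 76 differing responses between neighbouring days, 328 against control medium and 1776 within BMSDox. Array weights gave 10 for day 9 minus day 7 and 278 against control medium, and a fit on the OE_A2 libraries alone 1 and 26. With TMM the day 9 medians of oxidative phosphorylation, DNA replication and G2 and M phase were 0.20, −0.387 and −0.636, against 0.472, −0.116 and −0.366. The Rad21l response at day 9 minus day 4 was −0.66 with edgeR against 2.69. The cause of these shifts was not tested.

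Replicate numbers are shared by the groups, but no label ties them to a culture, and the deviations of same-numbered BMS and BMSDox libraries correlated at 0.13, 0.237, 0.128 and 0.251 (all pairs of groups −0.16 to 0.52). With a replicate block the differing responses rose to 12 (day 7 minus day 5) and 36 (day 9 minus day 7) and calls against control medium to 262, and other counts moved by less than 1.5 times. Depth limits genes near 1 read (0.302 to 0.947 RPM). The floors cover counting error only. The ± values are standard errors of limma from scatter among replicates, or an SD where this is stated.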
